A study of Mus musculus with 14 samples.

Results

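The genes described here are 37 genes of motile cilia and of the airway cells that carry them, out of 18193 genes that the array annotation named. They comprised 3 transcription factors, genes for the parts of the axoneme and other genes of ciliated cells. They were taken from a list of gene symbols and found on the array through every probe set annotated with exactly 1 of those symbols. A probe set is a group of short probes that measures 1 transcript. Of the genes, 35 matched by symbol (50 probe sets), and Dnai1 and Dnai2 matched through the RefSeq synonyms Dnaic1 and Dnaic2 (4 probe sets), the names used below. The rule used no measured value of its own, but the list was drawn up with earlier results of these data known. Of the 37 genes, 36 passed a filter on low signal and were tested among 12985 genes, and Spag17 did not pass it.

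Whole lungs of C57BL/6 mice aged 20 weeks were measured on 1-colour Affymetrix arrays, 1 array per sample. The groups were wild type (4 arrays, numbered 1, 3, 4 and 5), mice without the tetraspanin CD151 (CD151KO, 5 arrays, 1 to 5) and mice without the tetraspanin CD9 (CD9KO, 5 arrays, 1 to 5). No treatment is named for any group. How each knockout allele was made, the sex of the mice and whether the wild type mice were littermates are not given in the sources used here. Nothing in the labels states that each sample is a different mouse, so the p-values describe the spread among these arrays, part of which may be technical.

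Motile cilia are beating, hair-like extensions that move mucus along the airway. Their core, the axoneme, is a ring of paired microtubules (doublets) around a central pair. Dynein arms on the doublets supply the force, radial spokes and the central pair coordinate the beat, and the nexin-dynein regulatory complex links neighbouring doublets. In the lung these cilia belong to multiciliated cells of the airway epithelium. The transcription factors FOXJ1, RFX2 and RFX3 switch on many axonemal genes, RFX proteins by binding a palindromic promoter element called the X-box. Tetraspanins such as CD151 and CD9 are membrane proteins that organise integrins and other partners. The study's title concerns CD151 and the integrity of the lung epithelium, and the 3 comparisons asked whether ciliated cell transcripts differed in lungs without either protein and between the knockouts.

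Promoters were examined because the 3 regulators bind there and because many of their targets are among the genes described. RefSeq promoter windows (assembly GRCm38.p6, 250 bases before to 50 bases after a gene's start) were found for 32 of the 37 genes, and Foxj1, Rsph1, Rsph4a, Tppp3 and Lrrc6 were not matched. The windows were searched on both strands. An X-box stood in the windows of 8 of the 32 genes (25.0%) and of 474 of 27025 genes in the table (1.75%). The X-box half-site GTTGCC, which often forms part of a full X-box and so overlaps it, stood in 18 of 32 (56.3%) against 14.1% of all genes. The forkhead core TGTTTAC, which the family of FOXJ1 recognises, stood in 2 of 32 (6.25%, Ak7 and Mlf1) against 4.05%. These are matches of letters and not measured binding sites. Besides the 6 genes printed here, an X-box was found for Dnaic2 and Hydin. The 6 are those with the smallest p in any comparison. Each line gives the 250 bases before the start, 5′ to 3′ on the gene's strand, with the X-box in capitals:
1110017D15Rik: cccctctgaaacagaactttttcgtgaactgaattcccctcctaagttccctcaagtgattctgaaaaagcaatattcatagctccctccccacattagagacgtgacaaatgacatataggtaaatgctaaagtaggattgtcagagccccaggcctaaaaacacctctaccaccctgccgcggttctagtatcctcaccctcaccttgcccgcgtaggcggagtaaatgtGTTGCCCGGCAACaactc
Tekt2: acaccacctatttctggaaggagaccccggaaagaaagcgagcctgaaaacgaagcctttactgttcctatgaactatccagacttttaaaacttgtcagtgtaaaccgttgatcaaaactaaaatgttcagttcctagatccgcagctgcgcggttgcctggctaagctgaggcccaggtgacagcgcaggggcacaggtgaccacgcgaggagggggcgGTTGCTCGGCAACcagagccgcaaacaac
Dynlrb2: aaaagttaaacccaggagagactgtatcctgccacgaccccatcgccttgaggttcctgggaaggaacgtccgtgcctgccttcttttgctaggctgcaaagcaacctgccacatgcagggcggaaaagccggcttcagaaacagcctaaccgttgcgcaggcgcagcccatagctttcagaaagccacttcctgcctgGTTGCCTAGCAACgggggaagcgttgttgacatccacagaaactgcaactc
Lrrc23: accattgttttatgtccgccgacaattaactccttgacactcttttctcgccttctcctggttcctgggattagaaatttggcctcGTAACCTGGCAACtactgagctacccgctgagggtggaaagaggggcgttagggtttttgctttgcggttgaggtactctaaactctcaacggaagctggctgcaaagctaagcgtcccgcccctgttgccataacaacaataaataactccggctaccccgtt
Dnaic1: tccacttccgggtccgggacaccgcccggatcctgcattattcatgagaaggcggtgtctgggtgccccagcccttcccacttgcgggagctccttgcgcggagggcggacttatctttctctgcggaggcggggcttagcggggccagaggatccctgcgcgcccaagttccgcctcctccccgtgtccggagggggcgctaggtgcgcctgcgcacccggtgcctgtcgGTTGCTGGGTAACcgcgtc
Spag16: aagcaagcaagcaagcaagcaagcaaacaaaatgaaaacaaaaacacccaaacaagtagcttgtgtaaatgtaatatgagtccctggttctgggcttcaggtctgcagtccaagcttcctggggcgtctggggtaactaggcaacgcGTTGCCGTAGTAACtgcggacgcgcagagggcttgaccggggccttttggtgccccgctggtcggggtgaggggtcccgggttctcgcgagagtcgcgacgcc

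The X-box of 1110017D15Rik lay in chr4:41507765-41508014 (minus strand), 18 to 6 bases before the start. That of Dnaic1 lay on the same chromosome in chr4:41569544-41569793 (plus strand), 19 to 7 bases before its start. Those of Tekt2, in chr4:126325689-126325938 (minus strand), and Dynlrb2, in chr8:116504765-116505014 (plus strand), began 29 and 51 bases before the start. Those of Spag16, in chr1:69826720-69826969 (plus strand), and Lrrc23, in chr6:124779728-124779977 (minus strand), lay farther away and began 103 and 164 bases before it. The windows of Rsph9, Tmem212 and Dnah11, which passed a test below, held none of these motifs.

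The knocked-out genes checked the labels. Cd151 was at 1058 ± 17.7 in CD151KO (SD, n = 5) against 5330 ± 372 in wild type mice (n = 4), and Cd9 at 667 ± 52.3 in CD9KO (n = 5) against 8096 ± 69.4. Markers of the lung were bright on every array, among them Sftpc of alveolar type 2 cells (28308 to 29212) and Scgb1a1 of club cells (28414 to 29667). The first principal component held 37.5% of the variance. On it wild type 1 (-18.5) and CD151KO 1 (-17.2) stood apart from the other arrays (-8.01 to 13.4). All CD9KO arrays (7.23 to 13.4) lay above every wild type and CD151KO array (up to 2.46). Within wild type and within CD151KO the values rose with the array number. The relation of this component to the results was not tested. The BioB hybridisation controls, added in equal amounts to arrays of this kind, ran from 314 to 354 in the wild type, 363 to 424 in CD151KO and 361 to 444 in CD9KO, and their part in the results was not tested. Gapdh probe sets at the 3′ and 5′ ends, whose ratio is a sign of RNA quality, had ratios of 0.851 ± 0.012, 0.869 ± 0.013 and 0.856 ± 0.022.

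Between the knockouts, some motile cilium genes were higher in CD151KO than in CD9KO and none passed as lower. Of 36 tested genes, 8 rose (22.2%, at an adjusted p under 0.05) and 0 fell, where 5.99% of all genes tested were higher and 4.12% lower. The 8 were Rsph9, 1110017D15Rik, Dnah11, Ccdc153, Tekt2, Iqcg, Spag6l and Tmem212, of which 5 belong to parts of the axoneme and 3 (1110017D15Rik, Ccdc153 and Tmem212) are other genes of ciliated cells. Their differences were small, from log2 0.15 (Spag6l, 1.11-fold) to 0.29 (Tekt2, 1.22-fold). Differences and folds are on the log2(signal + 16) scale, which understates the change of genes with low signal, so a fold can be smaller than the ratio of the mean signals. The median difference of the 36 was log2 0.16, against 0.0016 for all genes tested. They ranged from -0.037 to 0.29, and 34 of 36 lay above 0, against 50.6% of all genes. At an unadjusted p under 0.05 stood 22 of 36, against 27.6%. The signals of the groups did not overlap for 1 gene that was higher in CD151KO (Rsph9; 6.55% of all genes) and for 0 that were lower (4.06%).

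The count of 8 depended on single arrays. It was 2 without CD151KO 1, 2 without CD151KO 5, 5 without CD151KO 4, 1 without CD9KO 3 and 1 without CD9KO 5, and across all 14 omissions it ran from 1 to 12. Without both arrays that stood apart on the first component it was 6. It was 5 with no filter on level and 16 when arrays were weighted by their quality. The median difference lay between 0.14 and 0.19 in every alternative that gave one.

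Against wild type, each knockout differed less. In CD151KO 0 of 36 genes rose and 0 fell by limma's adjusted p (0.454% and 0.323% of all genes), and 7 stood at an unadjusted p under 0.05 (11.1%). The smallest adjusted p was 0.078, for Rfx2. The median difference was log2 0.092 (0.0079 for all genes), the range -0.069 to 0.23, and 33 of 36 differences lay above 0 (54.0%). Groups did not overlap for 3 genes higher in CD151KO, Rfx2, Spag6l and Spag16 (2.84% of all genes), and for 0 lower (1.69%). With array weights 1 gene passed.

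In CD9KO 0 genes rose (2.88% of all genes) and 2 fell, Tmem212 and Rsph9 (5.56%, against 2.63% of all genes). At an unadjusted p under 0.05 stood 7 (19.4%, against 25.4%). The median was log2 -0.056 (0.0037 for all genes), the range -0.33 to 0.18, and 8 of 36 lay above 0 (51.2%). Without CD9KO 5 this median was -0.024, and with array weights it was -0.086. Groups did not overlap for 0 genes higher in CD9KO (6.64%) and for 2 lower, the same pair (5.19%). The count of 2 became 0 without wild type 1, wild type 3, wild type 4, CD9KO 3, CD9KO 4 or CD9KO 5. It became 1 without wild type 5, CD151KO 3 or CD151KO 4, and 5 without CD9KO 2. It was 0 without wild type 1 and CD151KO 1 together, and 0 with only the 2 compared groups in the fit. It was 1 with a pseudocount of 64, arrays centred on their median, no filter or no trend, and 4 with array weights. The 3 comparisons share samples and are not independent of one another. In whole lung, fewer ciliated cells and less RNA per ciliated cell cannot be told apart.

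**Figure D1:**
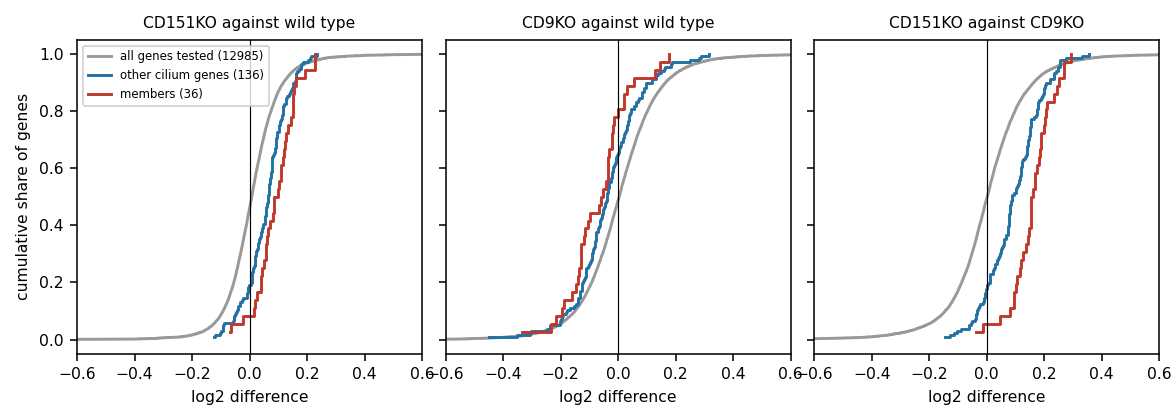
Cumulative share of genes (y axis) by log2 difference (x axis) for each comparison, for the 36 motile cilium genes (red), 136 other cilium genes described below (blue) and all 12985 genes tested (grey). For CD151KO against CD9KO the red curve lies to the right of the grey one, with 34 of 36 genes above 0; for CD9KO against wild type it lies to the left, with 8 of 36 above 0.

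**Figure D2:**
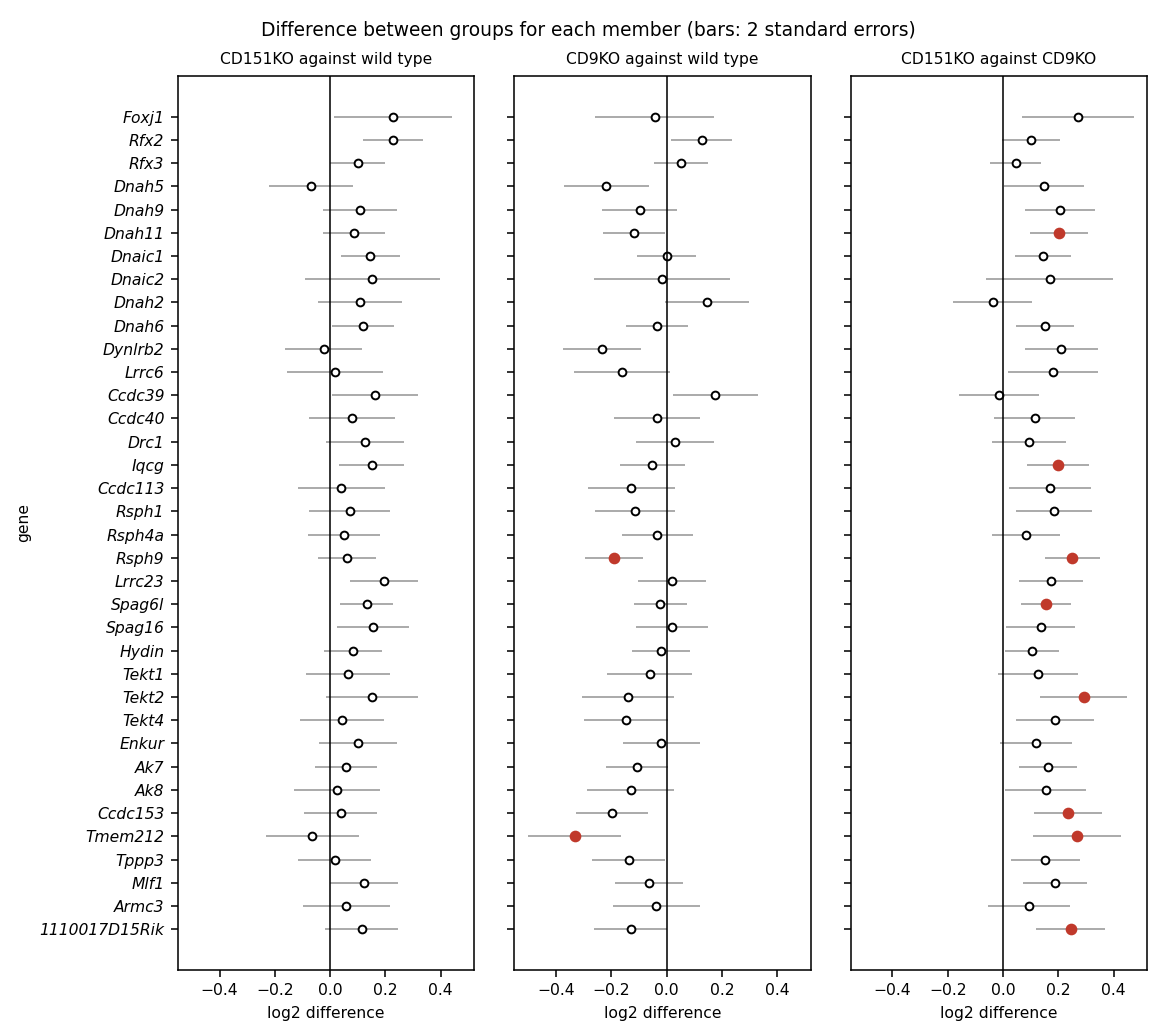
Log2 difference of each tested motile cilium gene (points) with bars of 2 standard errors, in 3 comparisons. Filled red points passed at an adjusted p under 0.05; there were 0, 2 and 8 from left to right.

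The 3 regulators did not pass the test in any comparison. FOXJ1 is the master regulator of motile cilia. Foxj1 gave 422, 497, 571 and 543 in the wild type, 583, 640.1, 595, 591 and 564 in CD151KO and 545, 569.6, 486, 510.4 and 365 in CD9KO. The wild type and CD9KO arrays overlapped throughout, CD9KO 5 was the lowest of all and every CD151KO array except CD151KO 5 lay above every wild type array. Foxj1 averaged 508 ± 65.2, 595 ± 28.1 and 495 ± 79.4. The difference between the knockouts (log2 0.27, SE 0.10, limma adjusted p = 0.099) and that of CD151KO from wild type (log2 0.23, SE 0.11, limma adjusted p = 0.452) did not pass. The former was log2 0.17 without CD9KO 5, and the latter log2 0.14 without wild type 1. Rfx2 encodes an RFX factor needed for ciliogenesis. Rfx2 gave 119, 135, 124 and 127 in the wild type, 169.7, 153, 149.7, 135 and 145 in CD151KO and 135, 145, 137, 141 and 138 in CD9KO. Every CD151KO array lay above every wild type array, and all CD9KO arrays but CD9KO 1 lay within the CD151KO range. Rfx2 differed from wild type by log2 0.23 (SE 0.055, limma adjusted p = 0.078) in CD151KO. Of its 3 other probe sets, 2 lay below the filter, with group means of 19.1 to 35.4, and give no measure of a change. The third, with group means of 85.3 to 91.0, differed by log2 0.015 in the same comparison. When all 4 probe sets were averaged, the dim ones included, the difference of CD9KO from wild type changed sign (log2 -0.032). Rfx3 gave 183, 207, 204 and 212 in the wild type, 228, 213, 209, 222 and 211 in CD151KO and 202, 206, 211, 226 and 202 in CD9KO. Its groups overlapped. Rfx3, a related factor, differed from wild type by log2 0.099 in CD151KO (adjusted p = 0.474), and its second probe set lay below the filter (group means of 31.7 to 34.8).

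Outer dynein arms drive the beat and are built from heavy chains such as DNAH5, DNAH9 and DNAH11 and the intermediate chains of Dnaic1 and Dnaic2. All 5 of these genes lay above 0 in CD151KO against CD9KO, with a median of log2 0.17, and 1 passed. Dnah11 gave 252, 243, 255 and 242 in the wild type, 260.2, 245, 264, 266 and 286 in CD151KO and 231, 246, 225, 238 and 199 in CD9KO. The CD9KO arrays were the lowest of the 14 except for CD9KO 2, which lay inside the range of both other groups, and CD151KO 5 was the highest. Dnah11 was 1.15-fold higher in CD151KO than in CD9KO (log2 0.20, SE 0.053, limma adjusted p = 0.027). The call was lost without CD151KO 1, 3 or 5, or CD9KO 3 or 5 (adjusted p = 0.0514 to 0.059). Dnaic2 gave 289, 364, 381 and 351 in the wild type, 382, 398, 328, 425 and 397 in CD151KO and 348, 406, 326, 401 and 246 in CD9KO. The groups overlapped widely, and CD9KO 5 was the lowest of the 14 arrays. Dnaic2 differed by log2 0.17 (SE 0.12, limma adjusted p = 0.364) between the knockouts, and by log2 0.057 without CD9KO 5. Dnah9 (log2 0.21, adjusted p = 0.0534), Dnah5 (0.15, 0.193) and Dnaic1 (0.14, 0.079) did not pass in that comparison. Dnah5 had its larger difference in CD9KO against wild type (log2 -0.22, adjusted p = 0.092), where Dnaic1 differed by log2 0.0012. A second Dnaic1 probe set, with group means of 103 to 116, differed there by log2 -0.056.

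Inner dynein arms shape the bend of the cilium. DNAH2 and DNAH6 are inner arm heavy chains, and DYNLRB2 is a dynein light chain of the roadblock family. None of the 3 genes passed in any comparison. Dynlrb2 gave 3204, 2875, 2886 and 2775 in the wild type, 2931, 2595, 2888, 2959 and 3064 in CD151KO and 2519.6, 2901, 2336, 2548 and 2199 in CD9KO. CD9KO 2 lay among the arrays of the other groups and the other 4 CD9KO arrays were the lowest of the 14. Dynlrb2 differed by log2 -0.23 (SE 0.070, limma adjusted p = 0.059) in CD9KO against wild type and by log2 0.21 (SE 0.066, limma adjusted p = 0.055) between the knockouts, and by log2 -0.024 in CD151KO against wild type. It passed between the knockouts without wild type 1, CD151KO 2 or CD9KO 2 (adjusted p = 0.014 to 0.039). It also passed there with a filter at the 60th percentile or with array weights (0.018 to 0.0498). In CD9KO against wild type it passed without CD9KO 2 (0.024) and with array weights (0.041). Dnah6 differed by log2 0.15 between the knockouts (adjusted p = 0.076). Dnah2 was 1 of the 2 genes below 0 there (log2 -0.037, adjusted p = 0.782).

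The next group holds Lrrc6, a dynein assembly factor, Ccdc39 and Ccdc40, whose proteins form the molecular ruler of the axonemal repeat, and Drc1, Iqcg and Ccdc113, of which DRC1 and IQCG belong to the nexin-dynein regulatory complex. Between the knockouts 5 of 6 lay above 0, with a median of log2 0.14, and 1 passed. Iqcg gave 108, 120.4, 131 and 109 in the wild type, 129, 135, 121, 137 and 136 in CD151KO and 111, 111, 113, 123 and 103 in CD9KO. The CD151KO arrays were the upper part of the range, though CD151KO 3 overlapped with CD9KO 4, and wild type spread across both. Iqcg averaged 131 ± 6.54 in CD151KO and 112 ± 6.96 in CD9KO, a fold of 1.15 with 16 added to each signal (log2 0.20, SE 0.056, limma adjusted p = 0.036). The call was lost without CD151KO 1, 2, 4 or 5, or CD9KO 1, 2, 3 or 5 (adjusted p = 0.057 to 0.093), and with no filter (0.0536). Ccdc39 gave 419.9, 502, 521 and 460.2 in the wild type, 524, 503, 502, 559.6 and 577 in CD151KO and 477, 518, 575, 622 and 510.0 in CD9KO. It was the other gene below 0 between the knockouts (log2 -0.014, adjusted p = 0.919), and both knockouts lay above wild type without passing (log2 0.16, adjusted p = 0.455 in CD151KO and log2 0.18, 0.167 in CD9KO). The first of these was log2 0.11 without wild type 1. Wild type 1 was its lowest array and CD9KO 4 its highest. Its partner Ccdc40 differed by log2 0.12 between the knockouts (adjusted p = 0.327), as did Lrrc6 by 0.18 (0.166), Ccdc113 by 0.17 (0.152) and Drc1 by 0.094 (0.382).

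Radial spokes carry signals from the central pair to the dynein arms, and the radial spoke head gene Rsph9 gave the smallest p of all genes described here. Rsph9 gave 465, 461, 452 and 452 in the wild type, 457, 445, 473, 498 and 519 in CD151KO and 419, 432, 393, 391 and 365 in CD9KO. All CD9KO arrays lay below all wild type and CD151KO arrays, while wild type lay within the range of CD151KO. Rsph9 averaged 458 ± 6.93 in the wild type, 479 ± 30.3 in CD151KO and 400.0 ± 26.4 in CD9KO. It was 1.19-fold higher in CD151KO than in CD9KO (log2 0.25, SE 0.050, limma adjusted p = 0.0077), and this call held under all 26 alternatives, with an adjusted p of 0.0023 to 0.023. It fell in CD9KO against wild type by 1.14-fold (log2 -0.19, SE 0.053, limma adjusted p = 0.0496), close to the threshold. That call was lost without wild type 1, 3, 4 or 5, or CD151KO 3 or 4, or CD9KO 3, 4 or 5 (adjusted p = 0.061 to 0.109), and under 7 other settings (0.0502 to 0.096). In CD151KO against wild type Rsph9 differed by log2 0.061 (adjusted p = 0.728). Rsph1 gave 838, 877, 782 and 753 in the wild type, 861, 738, 811, 879 and 994 in CD151KO and 767, 795, 724, 774 and 684 in CD9KO. Rsph1 encodes another spoke head protein, and its groups overlapped. Rsph1 differed by log2 0.19 (SE 0.069, limma adjusted p = 0.096) between the knockouts. It passed without CD151KO 2 (0.041) and with array weights (0.0498). Rsph4a, of the spoke head (log2 0.082, adjusted p = 0.405), and Lrrc23, of the spokes (log2 0.17, 0.068), did not pass. Lrrc23 differed by log2 0.19 in CD151KO against wild type (adjusted p = 0.210) and by 0.020 in CD9KO.

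**Figure D3:**
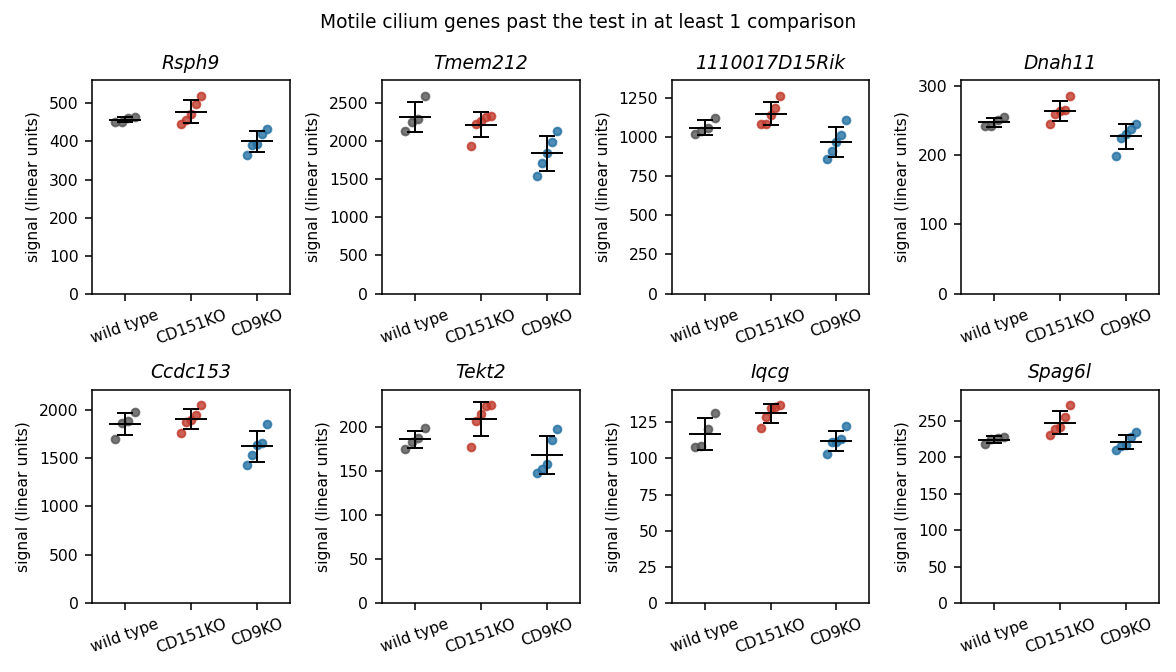
Signal in linear units (y axis, from 0) of the 8 genes that passed in at least 1 comparison, by group. Points are arrays, the horizontal mark is the group mean and the bar is 1 SD; Rsph9 shows no overlap between CD9KO (365 to 432) and the other groups (445 to 519).

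All 3 tested central pair genes lay above 0 between the knockouts, with a median of log2 0.14, and 1 passed. Spag6l gave 228, 225, 218 and 227 in the wild type, 242, 239, 255, 231 and 271 in CD151KO and 216, 227, 209.9, 234 and 217 in CD9KO. Every CD151KO array lay above every wild type array, and CD9KO overlapped with both. SPAG6 proteins are central pair components. Spag6l was 1.11-fold higher in CD151KO than in CD9KO (log2 0.15, SE 0.045, limma adjusted p = 0.043), and differed from wild type by log2 0.13 (SE 0.048, limma adjusted p = 0.284). The call between the knockouts was lost without wild type 3, 4 or 5, or CD151KO 1, 2, 3 or 5, or CD9KO 1, 3 or 5 (adjusted p = 0.0521 to 0.095), and under 5 other settings (0.0506 to 0.066). Spag16 gave 257, 306, 305 and 297 in the wild type, 330.4, 321, 310.2, 336 and 331 in CD151KO and 313, 321, 288, 305 and 252 in CD9KO. Here too all CD151KO arrays exceeded all wild type arrays, and Spag16, a further central pair gene, differed by log2 0.16 (SE 0.066, limma adjusted p = 0.377) in CD151KO against wild type, and by log2 0.0996 without wild type 1. Hydin differed by log2 0.10 between the knockouts (adjusted p = 0.185). Spag17 lay below the filter, and its signals were 56.3 ± 8.41 in the wild type, 55.4 ± 2.86 in CD151KO and 43.9 ± 7.99 in CD9KO.

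Tektins are filamentous proteins that line the doublets, and Enkur encodes another protein bound there. All 4 genes lay above 0 between the knockouts, with a median of log2 0.16, and 1 passed. Tekt2 gave 187, 198, 183 and 175 in the wild type, 223, 206, 177, 214 and 224 in CD151KO and 185, 197, 148, 158 and 152 in CD9KO. CD9KO 3, CD9KO 4 and CD9KO 5 were the 3 lowest arrays, while CD9KO 1 and CD9KO 2 lay among wild type and CD151KO 3 lay with them. Tekt2 averaged 209 ± 19.4 in CD151KO and 168 ± 21.9 in CD9KO, a fold of 1.22 with 16 added to each signal (log2 0.29, SE 0.078, limma adjusted p = 0.030), the largest difference among the 36 genes in that comparison. The call was lost without CD151KO 1, 2, 4 or 5, or CD9KO 3, 4 or 5 (adjusted p = 0.0542 to 0.081), and without wild type 1 and CD151KO 1 together (0.0635). Enkur gave 506, 542, 543 and 502 in the wild type, 564, 502, 522, 589 and 642 in CD151KO and 493, 526, 505, 586 and 475 in CD9KO. The groups of Enkur overlapped, and it differed by log2 0.12 (SE 0.066, limma adjusted p = 0.252), or log2 0.073 without CD151KO 5. Tekt4 (log2 0.19, adjusted p = 0.103) and Tekt1 (0.13, 0.274) did not pass.

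Ak7 and Ak8 encode adenylate kinases of cilia, which balance adenine nucleotides. Ak7 gave 849.9, 811, 827 and 813 in the wild type, 901, 784, 819, 884 and 913 in CD151KO and 759.5, 868, 761, 731 and 717 in CD9KO. CD9KO 2 lay among the CD151KO arrays and the other CD9KO arrays were the lowest of the 14. Ak7 differed by log2 0.16 (SE 0.053, limma adjusted p = 0.064) between the knockouts. It passed without CD151KO 2 or CD9KO 2 (0.016 to 0.041) and with array weights (0.029). Ak8 differed by log2 0.15 (adjusted p = 0.188).

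Of the 6 remaining genes, which are transcribed in ciliated cells, all lay above 0 between the knockouts and all lay below 0 in CD9KO against wild type. Tmem212 encodes a transmembrane protein and is used as a marker of ciliated cells. Tmem212 gave 2588, 2254, 2285 and 2134 in the wild type, 2319, 1937, 2217, 2331 and 2257 in CD151KO and 1982, 2129, 1717, 1845 and 1538 in CD9KO. Every CD9KO array lay below every wild type array, and CD151KO 2 lay among the CD9KO arrays. Tmem212 averaged 2315 ± 193, 2212 ± 161 and 1842 ± 229 in the 3 groups. It fell 1.26-fold in CD9KO against wild type (log2 -0.33, SE 0.084, limma adjusted p = 0.037), the largest fall among the 36 genes, and it was higher in CD151KO than in CD9KO (log2 0.27, SE 0.079, limma adjusted p = 0.0455). The first call was lost without wild type 1, 3 or 4, or CD9KO 3, 4 or 5 (adjusted p = 0.058 to 0.103), and with only the 2 groups or without wild type 1 and CD151KO 1 together (0.0585 to 0.094). The second was lost without wild type 3 or 4, or CD151KO 1, 3, 4 or 5, or CD9KO 3, 4 or 5 (adjusted p = 0.057 to 0.108), and under 6 other settings (0.0507 to 0.067).

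Ccdc153 gave 1976, 1863, 1882 and 1703 in the wild type, 1951, 1760.0, 1876, 1898 and 2045 in CD151KO and 1637, 1853, 1533, 1652 and 1430.2 in CD9KO. Ccdc153 encodes a coiled-coil protein and is likewise used as a ciliated cell marker. All CD9KO arrays but CD9KO 2, which lay within wild type, were lower than every other array. Ccdc153 was 1.18-fold higher in CD151KO than in CD9KO (log2 0.23, SE 0.062, limma adjusted p = 0.028), and differed by log2 -0.20 in CD9KO against wild type (adjusted p = 0.080; 0.033 without CD9KO 2). The call between the knockouts was lost without CD151KO 1 or 5, or CD9KO 3 or 5 (adjusted p = 0.0529 to 0.072). 1110017D15Rik gave 1123, 1016, 1054 and 1040.1 in the wild type, 1138, 1083, 1080.3, 1182 and 1260.2 in CD151KO and 1011, 1107, 908, 965 and 856 in CD9KO. Again all CD9KO arrays but CD9KO 2 were the lowest, and CD9KO 2 lay inside the CD151KO range. 1110017D15Rik, whose X-box is shown above, was 1.18-fold higher in CD151KO than in CD9KO (log2 0.24, SE 0.062, limma adjusted p = 0.024), a call lost without CD9KO 3 or 5 (adjusted p = 0.059 to 0.064).

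Tppp3 gave 5348, 5066, 4557 and 4834 in the wild type, 5279, 4316, 4931, 5105 and 5452 in CD151KO and 4777, 4734, 4571, 4088 and 4336 in CD9KO. Tppp3 encodes a tubulin-binding protein. Its groups overlapped, and it differed by log2 0.15 (SE 0.062, limma adjusted p = 0.125) between the knockouts, passing without CD151KO 2 (0.036). Mlf1 (log2 0.19, adjusted p = 0.0525) and Armc3 (0.095, 0.434) did not pass.

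The genes were high or low together on single arrays. On each array the deviation of each gene from its own mean over 14 arrays was averaged over the 36 genes. In wild type this mean deviation was 0.012, 0.0043, 0.012 and -0.060 (log2). In CD151KO it was 0.11, 0.00094, 0.017, 0.12 and 0.16, and in CD9KO -0.073, 0.035, -0.13, -0.011 and -0.20. Group means were -0.0079 ± 0.035 (SD, n = 4), 0.082 ± 0.070 (n = 5) and -0.076 ± 0.093 (n = 5). The groups overlapped, since CD9KO 2 lay above every wild type array and CD151KO 2 below 3 of them. CD151KO 5 was the highest array for 16 genes and above the gene's mean for 36 of 36. CD9KO 5 was the lowest for 22 genes and CD9KO 3 for 8, and they were above the mean for 1 and 2 genes.

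**Figure D4:**
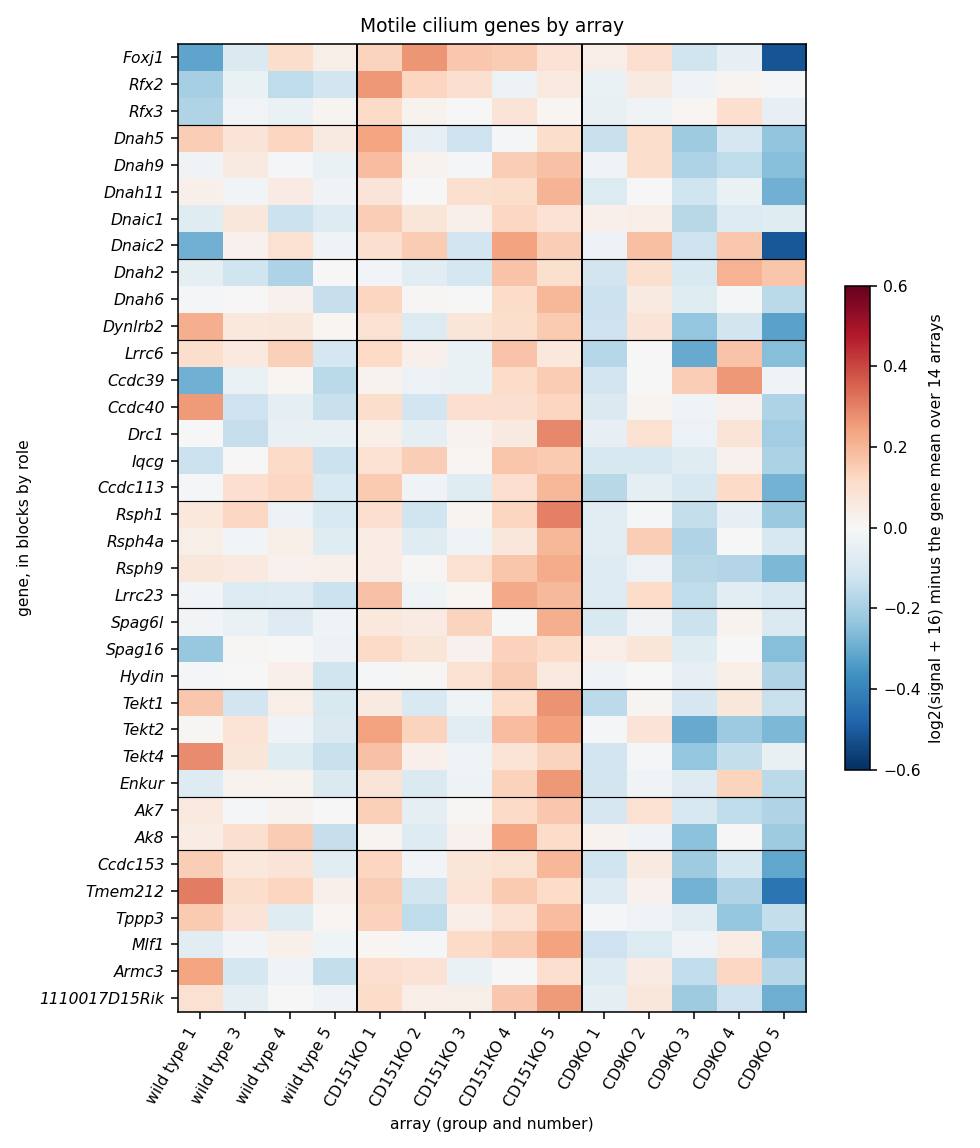
Deviation of each of 36 motile cilium genes (rows, in blocks by role) from its mean over 14 arrays, on the log2(signal + 16) scale, for each array (columns, by group). CD151KO 5 is above the mean in all 36 rows, while CD9KO 5 is above it in 1.

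After the group means were removed, the genes still varied together. Over the 630 pairs the median Pearson correlation of residuals was 0.46 over 14 arrays, and 88.9% of pairs lay above 0. The median over pairs of all genes tested was 0.011. These points share the same arrays and their normalization, and the values are a description. A gene's correlation with the mean of the others had a median of 0.71. It was highest for Ccdc153 (0.91), Dnah6 (0.90) and Dnah11 (0.88), and lowest for Rfx2 (0.0029), Rfx3 (0.14) and Dnah2 (0.24). Foxj1 had 0.33. Without CD151KO 2 and CD9KO 5, the arrays farthest from the median, the median was 0.62 and Foxj1 had 0.052.

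Outside the 36 genes, 12949 genes were ranked by the correlation of their residuals with the mean residual of the 36. The 10 most alike were Zmynd12, Eno4, Agr3, Ccdc189, Clic6, Gas2l2, Fam183b, Zmynd10, Spaca9 and Iqca, with r from 0.95 to 0.88. Between the knockouts, Zmynd12 (r = 0.95; log2 0.31, adjusted p = 0.020), Eno4 (r = 0.94; log2 0.20, adjusted p = 0.041) and Agr3 (r = 0.92; log2 0.30, adjusted p = 0.013) were higher in CD151KO. So were Spaca9 (r = 0.89; log2 0.29, adjusted p = 0.0050), Ccdc189 (r = 0.91; log2 0.23, adjusted p = 0.031), Clic6 (r = 0.91; log2 0.23, adjusted p = 0.025), and Fam183b and Zmynd10, whose values follow with their lists. Gas2l2 (r = 0.90; log2 0.14, adjusted p = 0.101) and Iqca (r = 0.88; log2 0.15, adjusted p = 0.144) did not pass. Of the 50 most alike, 15 (30.0%) belonged to the 136 tested genes of other cilium lists described next, which is 11.0% of those lists. Genes of these lists made up 1.05% of all genes ranked.

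Other genes of cilia were followed in 5 lists, of which 136 genes passed the filter. Between the knockouts 23 of the 136 rose in CD151KO (16.9%, against 5.99% of all genes) and 0 fell (4.12%), 111 lay above 0 (81.6%, against 50.6%), and the median was log2 0.089. In CD9KO against wild type 2 rose (2.88% of all genes did) and 6 fell (2.63% of all genes did), 47 lay above 0, and the median was -0.038. In CD151KO against wild type 0 rose and 0 fell by limma's adjusted p (0.454% and 0.323% of all genes), and 110 lay above 0 (80.9%, against 54.0%) with a median of 0.066. The list of multiciliogenesis regulators and centriole amplification genes had 14 tested genes, of which 2 rose between the knockouts, with a median of log2 0.016. The shares of all genes given here apply to each list that follows: 5.99% higher and 4.12% lower between the knockouts, and 2.88% higher and 2.63% lower in CD9KO against wild type. Deup1, which builds the deuterosomes on which centrioles multiply, had signals of 124 ± 9.8 in the wild type, 119.6 ± 8.2 in CD151KO and 97.5 ± 6.82 in CD9KO. It rose in CD151KO against CD9KO (log2 0.26, adjusted p = 0.013) and fell in CD9KO against wild type (log2 -0.30, adjusted p = 0.017). Deup1 was the only 1 of the 14 that fell in CD9KO against wild type. There 9 of the 14 lay above 0, with a median of log2 0.031. Trp73, a transcription factor upstream of Foxj1, rose between the knockouts (log2 0.17, adjusted p = 0.038).

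Of 19 other dynein, docking and assembly genes 2 rose between the knockouts, with a median of log2 0.087. They were Armc4, of the outer arm docking complex (log2 0.24, adjusted p = 0.011), and Zmynd10, an assembly factor (log2 0.25, adjusted p = 0.019). Of 54 other axoneme and ciliated cell genes 9 rose, with a median of log2 0.12. Among them were Cfap52 (log2 0.25, adjusted p = 0.014), Odf3b (log2 0.22, adjusted p = 0.020), Fam183b (log2 0.26, adjusted p = 0.024) and Nme5 (log2 0.20, adjusted p = 0.027). In CD9KO against wild type 1 of these 54 rose, Ccdc146 (log2 0.28, adjusted p = 0.016), and 0 fell.

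Intraflagellar transport carries cargo along motile and non-motile cilia alike. Of 29 tested genes 5 rose in CD151KO against CD9KO (5.99% of all genes) and 0 fell (4.12%; median log2 0.090), and in CD9KO against wild type 4 fell (2.63%) and 1 rose (2.88%; median -0.076). Dync2li1, a chain of the retrograde motor, had 794 ± 52 in the wild type, 847 ± 18.2 in CD151KO and 670.2 ± 32.5 in CD9KO. It rose between the knockouts (log2 0.33, adjusted p = 0.0010) and fell in CD9KO against wild type (log2 -0.24, adjusted p = 0.016). Ift122 rose and fell likewise (log2 0.26, adjusted p = 0.0081, and log2 -0.24, adjusted p = 0.027), Ift20 (log2 0.17, adjusted p = 0.0059) and Hspb11 (log2 0.19, adjusted p = 0.0084) rose between the knockouts, and Wdr35 fell in CD9KO (log2 -0.31, adjusted p = 0.043). Ttc30a1 rose in CD9KO against wild type (log2 0.31, adjusted p = 0.023). Of 20 genes of the BBSome and the transition zone, which sort proteins at the base of most cilia, 5 rose between the knockouts (median log2 0.087) and 1 fell in CD9KO against wild type. Cc2d2a did both (log2 0.36, adjusted p = 0.016, and log2 -0.45, adjusted p = 0.016). B9d1 (log2 0.18, adjusted p = 0.016), B9d2 (log2 0.19, adjusted p = 0.035) and Ttc8 (log2 0.23, adjusted p = 0.035) rose between the knockouts.

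Markers of other airway cells moved on some of the same arrays. Of 18 club and secretory cell markers 17 were tested, and 5 rose in CD151KO against CD9KO (5.99% of all genes) and 0 fell (4.12%), while 12 of the 17 lay above 0 (50.6% of all genes; median log2 0.13). Bpifa1, an airway secretory protein, had 8340.5 ± 1075 in the wild type, 10967 ± 1783 in CD151KO and 5777 ± 3210.0 in CD9KO (log2 1.06, adjusted p = 0.018), Scgb3a1 had 7602 ± 1105 in the wild type, 8983 ± 1096 in CD151KO and 5729.8 ± 1794 in CD9KO (log2 0.70, adjusted p = 0.028), and Cckar (log2 0.41, adjusted p = 0.0072) and Lypd2 (log2 0.30, adjusted p = 0.018) also rose. The mean log2 level of the list ran from 11.65 to 11.73 in wild type, 11.77 to 11.91 in CD151KO and 11.45 to 11.74 in CD9KO. Its mean deviation was lowest on CD9KO 5 (-0.27) and CD9KO 3 (-0.15), the lowest arrays of the motile cilium genes too, and highest on CD151KO 4 (0.20). Of the lists described below, those of goblet cells (-0.21), cartilage (-0.18) and submucosal glands (-0.35) were also lowest on CD9KO 5. The neuroendocrine list was highest on that array (0.32), and the smooth muscle list lay above 0 (0.14). The part of these lists in the cilium results was not tested.

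**Figure D5:**
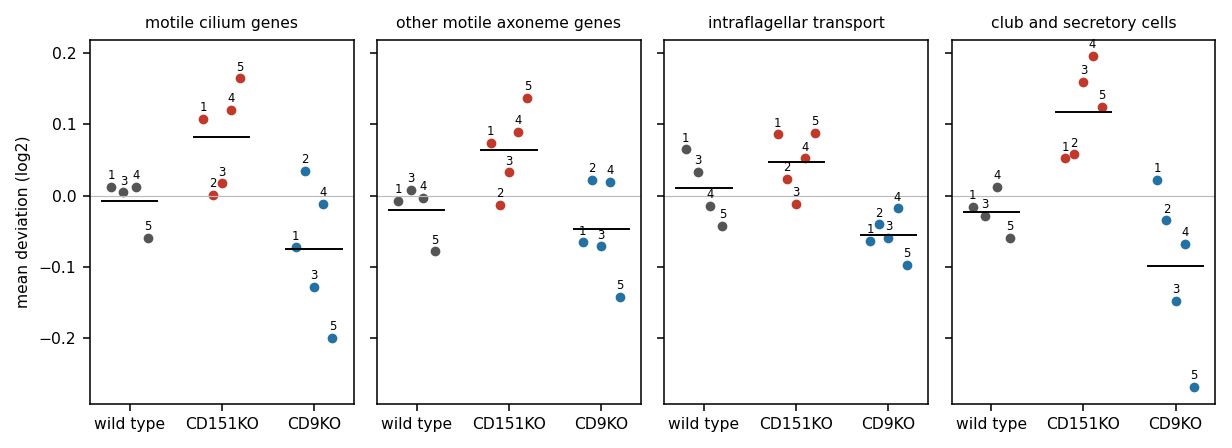
Mean deviation on the log2 scale (y axis) of 4 gene lists on each array, by group; numbers are array numbers and horizontal lines are group means. CD9KO 5 is the lowest array in each panel, at -0.20 for the motile cilium genes and -0.27 for club and secretory cell markers.

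Of 6 tested goblet cell markers 1 rose between the knockouts, Fcgbp (log2 0.20, adjusted p = 0.039), and 1 fell in CD9KO against wild type, Tff2 (log2 -0.50, adjusted p = 0.033). Of 5 tested markers of submucosal glands Tcn2 was higher in CD9KO than in wild type (log2 0.26, adjusted p = 0.036) and lower in CD151KO than in CD9KO (log2 -0.24, adjusted p = 0.027). Most of the gland list went the other way between the knockouts, where 4 of the 5 lay above 0, with a median of log2 0.13. In CD9KO against wild type 3 of the 5 lay above 0, with a median of log2 0.032. Of 6 smooth muscle genes, which whole lung values do not assign to airway or vessel, 4 rose in CD9KO against wild type (2.88% of all genes). Their median was log2 0.28, and 1 rose in CD151KO against wild type (0.454%). Actg2 had 219 ± 13 in the wild type, 292 ± 17.9 in CD151KO and 319.8 ± 36.3 in CD9KO. Of 6 neuroendocrine markers on the array 3 lay below the filter. Of the 3 tested, 2 were higher in CD9KO than in wild type (2.88% of all genes), Resp18 (log2 0.53, adjusted p = 0.0040) and Uchl1 (log2 0.36, adjusted p = 0.0467). Resp18 had means of 57.3 in the wild type and 47.8 in CD151KO, around the filter of 53.4, and 90.1 in CD9KO. Its place among the tested genes rested on CD9KO, where it was high, so its value is a description only. Large airway cartilage was checked because it is sampled together with large bronchi. Its defining genes Col2a1 (28.9 to 40.4) and Acan (33.5 to 43.6) lay below the filter of 53.4 in all groups. Chad was the cartilage gene that passed between the knockouts (log2 0.44, adjusted p = 0.039), out of 4 tested of 17 on the array. It was the only 1 of the 4 above 0 there, and the median of the 4 was log2 -0.025. Chad is also on the club and secretory list and is counted there among the 5 that rose. Of 7 basal cell markers 2 were above the filter and 0 passed, and of 8 testis and sperm genes 1 was above it and 0 passed. Alveolar type 2 markers had 1 of 7 higher in CD151KO than in CD9KO, Abca3 (log2 0.36, adjusted p = 0.0041), and alveolar type 1 markers 1 of 8 lower, Clic5 (log2 -0.13, adjusted p = 0.030).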

How the data were processed

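Whole lung RNA of 14 samples was measured on 1-colour arrays. The deposited values are normalized intensities on a linear scale, 1 per probe set and array, per the labels. Per the submitters' processing notes the tools were Affymetrix Expression Console and MAS5 (no version or role). How the authors summarised and normalized the intensities is not stated there, and low signals depend on it. Signals ran from 4.78 to 29667 and array medians from 84.1 to 86.2. Precision is limited by the number of arrays, and for weak genes by signals near background.

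Of 45101 probe sets, 34945 had 1 gene symbol in the platform annotation, 932 had several, 9160 had none and 64 were controls. For each gene the probe set of highest mean was used. Genes below the 40th percentile (log2 6.12, a signal of 53.4) were left out. Values on the log2(signal + 16) scale were fitted with limma 3.58.1 (R 4.3.3; lmFit, eBayes with trend), with the 3 groups and 14 arrays in 1 model and 11 residual degrees of freedom. P-values are two-sided, with Benjamini-Hochberg adjustment over 12985 genes, and genes passed at an adjusted p under 0.05. The fit was also run on simulated data in which the noise was independent between genes. The genes described here varied together, so that run does not measure how shared variation affects their calls. Plots used matplotlib 3.10.9 and Python 3.11.15. Promoter sequences came from RefSeq (GRCm38.p6).

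The genes and lists were chosen with earlier results of these data known. Signals are given on every array for the 3 regulators, each gene that passed, and, in each role, the gene with the smallest p and the gene with the highest signal. Other genes named are up to 4 per list, by smallest p among those that passed, and the 10 most alike in their residuals. Defining markers and genes named to complete a count were chosen beside that rule. The alternatives were other pseudocounts, filters, normalizations, probe set rules and fits, and leaving out arrays.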

Additional observations from a re-analysis of the deposited data

Results flagged for a closer look

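Of 114 sets of values (each gene, and the mean deviation, in each group), 4 held an array far from the rest of its group by Dixon's 95% criterion (3.51%), and chance alone would mark about 5% of such sets. CD151KO 2 gave 252 for Ccdc40, where the other CD151KO arrays gave 294 to 301, and 1937 for Tmem212, where they gave 2217 to 2331. Wild type 1 gave 257 for Spag16, where the other wild type arrays gave 297 to 306. The mean deviation of the 36 genes was -0.060 on wild type 5 and 0.0043 to 0.012 on the other wild type arrays.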

How the results depend on the processing

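In CD151KO against CD9KO the count of 8 was 5 with no filter on level, 16 with array weights, and 1 to 12 when 1 array was left out. In CD9KO against wild type the count of 2 was 1 with a pseudocount of 64, median centring, no filter or no trend, 0 with only the 2 groups or without wild type 1 and CD151KO 1 together, 4 with array weights, and 0 to 5 without 1 array. In CD151KO against wild type the count of 0 was 1 with array weights. Medians of the 36 genes kept their direction: 0.063 to 0.12 for CD151KO and -0.086 to -0.024 for CD9KO, each against wild type, and 0.14 to 0.19 between the knockouts. Whether equal replicate numbers pair the samples was not settled. Of 13 same-numbered pairs 6 had a residual correlation over 0.1 (-0.13 to 0.59). Their median was 0.096, against -0.010 for pairs with different numbers. With the number as a replicate block, 8, 1 and 0 genes passed for CD151KO against CD9KO, CD9KO against wild type and CD151KO against wild type.

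Of 57 single-gene differences 10 changed sign somewhere, none past the threshold on either side. The mean of all probe sets takes in some below the filter for Ccdc39, Dnaic2, Rfx2 and Rfx3. With that mean Ccdc39 was 0.046 between the knockouts. In CD9KO against wild type Dnaic2 was then 0.0062, Rfx2 -0.032 and Rfx3 -0.018. With array weights Ccdc39 was 0.014 between the knockouts, Dynlrb2 0.022 in CD151KO against wild type and Spag16 -0.032 in CD9KO against wild type. Without wild type 1 and CD151KO 1 together, Dynlrb2 was 0.013 and Spag16 -0.036. Leaving out 1 array, Ccdc39 ran from -0.057 to 0.036 between the knockouts. In CD151KO against wild type Ccdc153 ran from -0.0021 to 0.069, Dynlrb2 from -0.050 to 0.019 and Tppp3 from -0.022 to 0.070. In CD9KO against wild type Dnaic2 ran from -0.096 to 0.095, Enkur from -0.064 to 0.010, Foxj1 from -0.13 to 0.059 and Spag16 from -0.036 to 0.072. Of 10 single-gene calls 9 lost the threshold in some alternative and 0 reversed. The causes were not tested.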
